A study of Mus musculus with 16 samples.

Results

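The glycolytic genes described here were the glucose transporter Slc2a1, the hexokinases Hk1, Hk2 and Hk3, the phosphofructokinases Pfkl and Pfkp, the regulatory enzyme Pfkfb3, and Pgk1, Pkm and Ldha of the later steps. They were chosen by symbol, and each of the 10 was 1 row of a count table of 47069 genes. RNA was sequenced from bone marrow-derived macrophages (BMMs), which were grown from C57BL/6 mice of 8 to 10 weeks of age and harvested on day 7 of culture in L929-conditioned medium. All cells were primed with IFNγ at 10 ng/mL and then activated for 1 hr with LPS at 100 ng/mL together with immune complexes (ICs) of IgG-opsonized OVA. The compared groups differed in the compound present. One group received the γ-secretase inhibitor (GSI) DAPT at 25 μM, which blocks the cleavage of Notch receptors and of other substrates of the enzyme, and the other received its vehicle, 0.01% DMSO, with 2 replicates each. GSI below stands for the DAPT group. The sources differ on how long the cells were with the inhibitor before activation, so the length of that exposure is not certain here. No unactivated library was analysed here, and no value below describes a response to LPS/ICs. The labels do not say whether the replicates were separate cultures or animals, so the p-values measure only the spread between these libraries, which may be technical.

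Glycolysis splits glucose into pyruvate in the cytosol. GLUT1, encoded by Slc2a1, brings glucose in, hexokinases trap it as glucose 6-phosphate, and phosphofructokinase commits it to the pathway. PFKFB3 makes fructose 2,6-bisphosphate, the allosteric activator of phosphofructokinase, and LDHA turns pyruvate to lactate. Macrophages stimulated with LPS take up more glucose and release lactate, and the transcription factor HIF-1α is known to drive many of these genes.

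Between 42694655 and 56932059 counts were assigned to genes per library. The members had between 2541 and 111358 counts per library. The macrophage genes Lyz2, Csf1r, Cd14, Adgre1 and Cd68 were abundant in all 4 libraries, whereas Cd3g, Ebf1, Elane and Hbb-bs were at 0. The 10 macrophage marker symbols summed to 12760 to 12830 CPM (read counts normalised to the library total) with DMSO and 9839 to 10750 with GSI. Of their 11 rows 8 were lower and 1 higher at an adjusted p under 0.05 in edgeR's quasi-likelihood test. Of all genes tested 21.9% were lower and 19.0% higher. The marker Itgam had a further row of only 16 to 56 counts per library. T cell markers summed to 1.49 to 1.73 CPM with DMSO and 2.83 to 3.77 with GSI, mostly through Lck and Cd4. Dendritic cell markers summed to 178 to 188 CPM with DMSO and 113 to 115 with GSI, with Cd209a and Siglech at 0 and most of the sum from Clec9a. Granulocyte, B cell, stromal and erythroid markers summed to at most 1.69 CPM in any library. The part of these marker differences in the results below was not tested, and in bulk RNA fewer cells of a type and less RNA per cell cannot be told apart.

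The members moved in both directions with GSI, with log2 fold changes from -0.41 to 0.31. Slc2a1, Hk2 and Pfkfb3, which act on glucose entry, trapping and the control of phosphofructokinase, fell by 18.1% to 24.6%. Ldha, at the end of the pathway, rose by 24.1%, and Hk3, Pfkl and Pgk1 rose by 15.7% to 19.8%. Hk1, Pfkp and Pkm did not pass the test. A gene was called when its Benjamini-Hochberg adjusted p (FDR) in edgeR's quasi-likelihood test was under 0.05. By that rule 7 of 10 members were called, where 40.8% of all 13211 genes tested were. Of these, 3 of 10 members were lower, where 21.9% of all genes were lower, and 4 of 10 were higher, where 19.0% of all were higher. No member passed the stricter rule of an FDR under 0.05 with a log2 fold change beyond 1.5 in either direction, which 2.91% of all genes passed, and none was called with a change of more than 1.5-fold, which 14.1% of all genes were. In all 10 members both GSI libraries lay on 1 side of both DMSO libraries, above in 6 and below in 4. Such separation held for 70.6% of all genes tested, with both GSI libraries above in 35.8% and below in 34.8%. The median log2 fold change (GSI over DMSO) was 0.086 over the members and 0.015 over all genes tested.

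**Figure D1:**
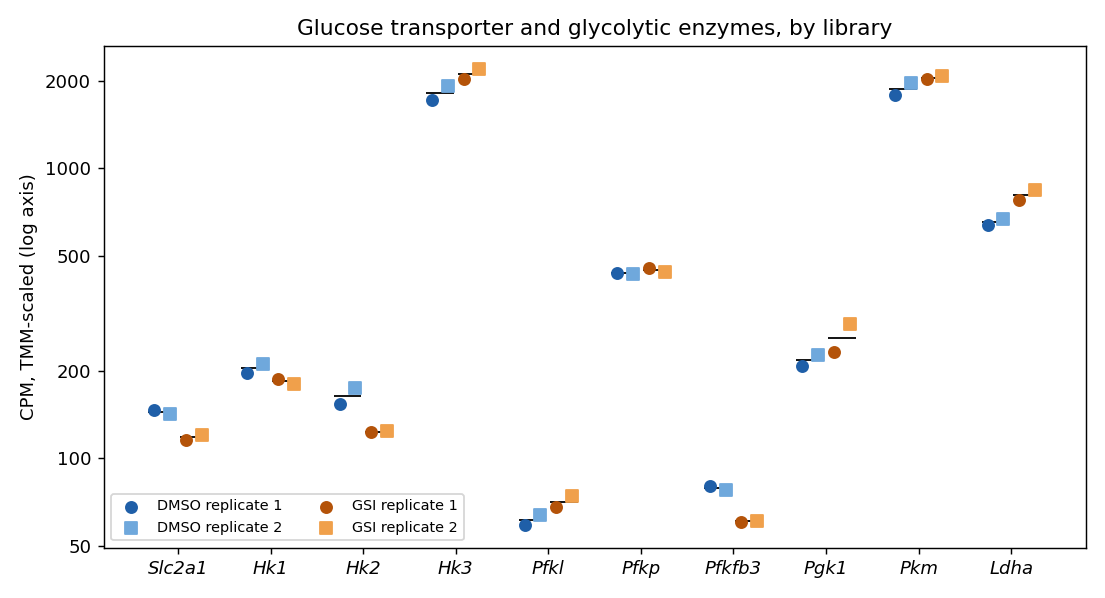
Levels of the 10 members in each library, in CPM scaled by TMM, with DMSO and GSI libraries as points and lines at the group means; the vertical axis is logarithmic. For Slc2a1, Hk1, Hk2 and Pfkfb3 both GSI libraries lie below both DMSO libraries, and for the other 6 members both lie above.

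In the following, CPM are scaled by TMM. Slc2a1 lies on chromosome 4 (GRCm38, chr4:119108711-119137983, plus strand). It had 147 and 142 CPM with DMSO and 116 and 120 CPM with GSI. The replicates were close to each other and the groups were well apart. The mean went from 144 ± 3.35 to 118 ± 2.99 CPM (SD, n = 2 each), a log2 fold change of -0.29 (SE 0.069, edgeR quasi-likelihood FDR = 0.00228). The call was kept whichever library was left out, with log2 fold changes from -0.31 to -0.26. An antisense gene, Gm12868, shares 105 exon bases with Slc2a1 and held 0 to 8 counts per library.

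Among the 3 hexokinases Hk2 fell, Hk3 rose and Hk1 did not pass the test. Hk2 (chr6:82725025-82774454, minus strand), the inducible form that binds mitochondria, had 154 and 174 CPM with DMSO and 123 and 125 CPM with GSI. It fell by 24.6%, a log2 fold change of -0.41 (SE 0.074, FDR = 0.000167), the largest decrease among the members, and was called without any 1 library (-0.50 to -0.32). Hk1 (chr10:62268855-62379908, minus strand), the broadly expressed form, had 197 and 212 CPM with DMSO and 188 and 181 CPM with GSI. Both GSI libraries of Hk1 were the lower ones, yet its log2 fold change of -0.15 (SE 0.071) missed the threshold at an FDR of 0.0959, with a 95% interval of -0.30 to -0.0027. Without 1 library the value of Hk1 lay between -0.20 (DMSO replicate 1 left out) and -0.099 (DMSO replicate 2 left out), with no call. With the replicate number as a block the same -0.15 had an FDR of 0.0491. Hk3 (chr13:55005985-55021385, minus strand), the form of myeloid cells, had 1710 and 1913 CPM with DMSO and 2028 and 2200 CPM with GSI. Its means of 1812 ± 144 and 2114 ± 122 CPM (SD, n = 2 each) gave a log2 fold change of 0.22 (SE 0.079, FDR = 0.0302). The gap between the highest DMSO and the lowest GSI library of Hk3 was smaller than the gap within either group. Without DMSO replicate 1 the value for Hk3 was 0.14 (FDR = 0.328) and without GSI replicate 2 it was 0.16 (FDR = 0.126), so the call rested on those libraries. Hk1 shares 157 exon bases with the opposite-strand gene Hk1os (9 to 18 counts per library) and Hk3 shares 34 with Unc5a (3 to 30 counts).

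Hk3 was also the most abundant member per length. Its level, as CPM per kb of merged exon, was 533 over the 4 libraries, against 24.1 for Hk2 and 22.8 for Hk1. Hk3 made up 90.5% and 90.6% of the summed hexokinase level with DMSO and 92.8% and 93.4% with GSI, a difference of 2.59 percentage points. The Hk2 share went from 5.03% and 5.09% (DMSO) to 3.48% and 3.26% (GSI). The Hk1 share went from 4.49% and 4.33% (DMSO) to 3.71% and 3.31% (GSI). For each of the 3 genes the groups did not overlap, but an exact two-sided permutation test of 2 against 2 libraries cannot give a p below 0.333, which was the p of each. The summed hexokinase level was 513 and 574 CPM per kb with DMSO and 593 and 639 with GSI. Within a library the log2 ratio of the CPM of Hk2 to that of Hk3 went from -3.47 and -3.46 (DMSO) to -4.04 and -4.14 (GSI). This ratio does not depend on the scaling between libraries and its mean difference was -0.63, larger than the spread between replicates.

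**Figure D2:**
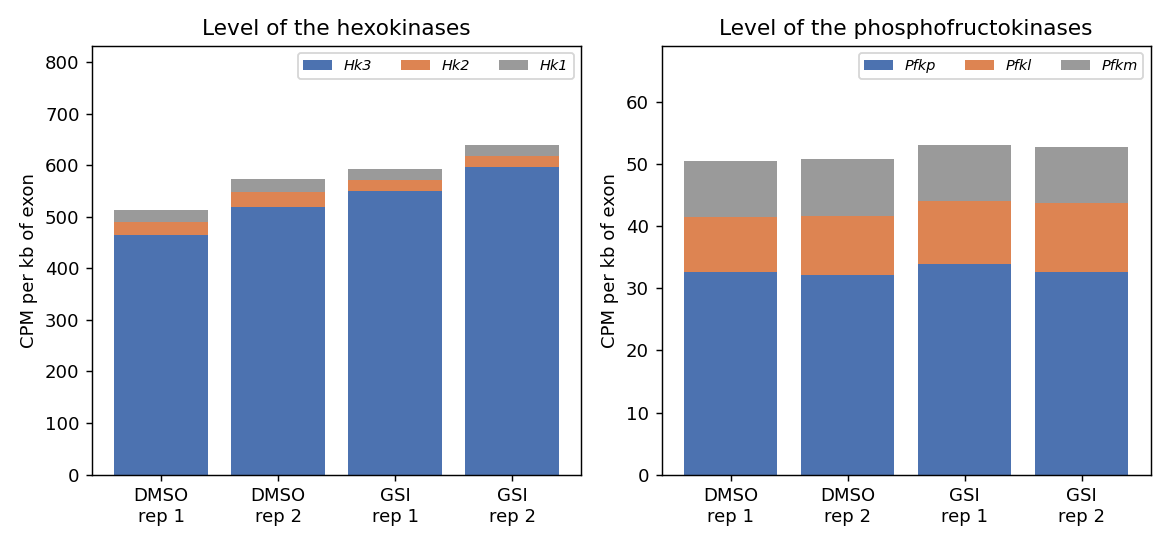
Stacked levels of the hexokinase genes (left) and phosphofructokinase genes (right) in each library, in CPM per kb of merged exon. Hk3 holds 90.5% or more of the hexokinase level in all 4 libraries and the summed phosphofructokinase level is 50.5 to 53.1.

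Phosphofructokinase is built from liver, muscle and platelet type subunits. Pfkp (chr13:6579768-6648777, minus strand), the platelet type, had 437 and 431 CPM with DMSO and 454 and 438 CPM with GSI. Its values were nearly the same in all libraries, with a log2 fold change of 0.040 (SE 0.070, FDR = 0.683) and a 95% interval of -0.11 to 0.19. With GSI replicate 1 or 2 left out the value was 0.013 or 0.068, again with no call. Pfkl (chr10:77986947-78010083, minus strand), the liver type, had 59.1 and 63.7 CPM with DMSO and 68.0 and 74.0 CPM with GSI. Pfkl rose by 15.7%, a log2 fold change of 0.21 (SE 0.075, FDR = 0.0297). That call was lost without DMSO replicate 1 (0.16, FDR = 0.240), without GSI replicate 2 (0.15, FDR = 0.190) and with DESeq2 (0.21, FDR = 0.0619). Pfkm, the muscle type, had a log2 fold change of -0.027 and did not pass the test. Per length Pfkp took 62.0% to 64.5% of the summed level, and its groups overlapped. The share of Pfkl went from 17.5% and 18.7% (DMSO) to 19.2% and 21.0% (GSI). Pfkp shares 748 exon bases with the opposite-strand gene Pitrm1, which held 1873 to 2408 counts per library, and the strand setting of the counting is not given in the sources used here.

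Pfkfb3 (chr2:11471433-11554077, minus strand) had 80.6 and 78.1 CPM with DMSO and 60.5 and 61.0 CPM with GSI. The replicates differed by far less than the groups. The mean went from 79.3 ± 1.76 to 60.8 ± 0.356 CPM (SD, n = 2 each), a log2 fold change of -0.38 (SE 0.070, edgeR FDR = 0.000187), and stayed between -0.41 and -0.36 without any 1 library. Of the other genes that control fructose 2,6-bisphosphate, Pfkfb1, Pfkfb2, Pfkfb4 and Tigar were tested and none was called, with log2 fold changes from -0.17 to 0.17, where 40.8% of all genes were called. With the replicate number as a block 1 of the 4 was called, Pfkfb4 (-0.17, FDR = 0.0495), where 48.8% of all genes were.

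Of the later enzymes, Ldha (chr7:46841475-46855627, plus strand) had 637 and 668 CPM with DMSO and 777 and 842 CPM with GSI. Its mean went from 652 ± 22.3 to 810 ± 46.5 CPM (SD, n = 2 each), a log2 fold change of 0.31 (SE 0.075, FDR = 0.00222). Both GSI libraries were above both DMSO libraries by more than either group's spread, and the call was kept without any 1 library (0.25 to 0.37). Pgk1 (chrX:106187100-106203699, plus strand), phosphoglycerate kinase of the first ATP-forming step, had 208 and 228 CPM with DMSO and 232 and 290 CPM with GSI. The groups of Pgk1 were barely apart, with GSI replicate 1 close to DMSO replicate 2. Its log2 fold change of 0.26 (SE 0.088, FDR = 0.0229) became 0.19 (FDR = 0.132) without DMSO replicate 1 and 0.090 (FDR = 0.433) without GSI replicate 2. Pkm (chr9:59656368-59679375, plus strand), the pyruvate kinase gene whose spliced forms M1 and M2 cannot be told apart in gene counts, had 1783 and 1963 CPM with DMSO and 2036 and 2069 CPM with GSI. Pkm did not pass the test, at a log2 fold change of 0.13 (SE 0.076, FDR = 0.175) and a 95% interval of -0.03 to 0.29. Its value was 0.063 without DMSO replicate 1 and 0.20 without DMSO replicate 2, and it was called in neither fit. Pgk1, Pkm and Ldha have processed pseudogenes, and 53.9%, 25.8% and 9.04% of their 50-base windows occur in transcripts of other genes, so their counts are less certain than those of the other members. The Pkm copy Gm6560 held 221 to 306 counts per library and Pgk1-rs7 held 6 to 18. Leaving out DMSO replicate 1 or GSI replicate 2 lowered the number of members called higher from 4 to 1, which was Ldha. Calls over all genes went from 40.8% to 30.7% and 35.6% in those fits. The 3 members called lower were called in all 4 such fits.

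**Figure D3:**
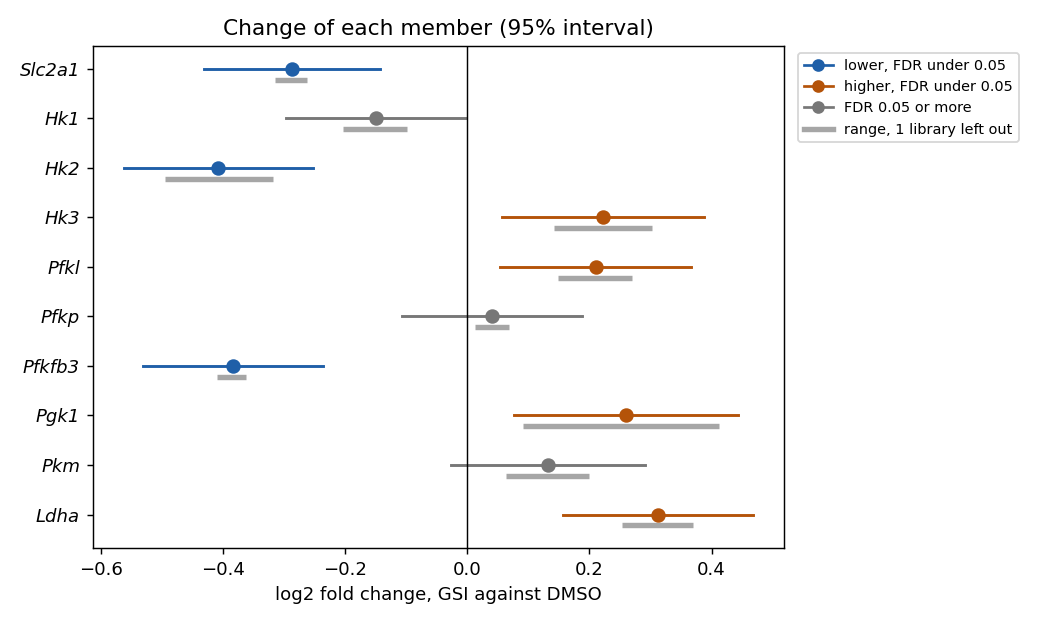
Log2 fold change of each member (GSI over DMSO) with its 95% interval from the edgeR fit, with a grey bar for the range of values with 1 library left out. With 1 library left out, Slc2a1, Hk1, Hk2 and Pfkfb3 stay below 0 and the other members above 0. The intervals of Pfkp and Pkm include 0.

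Per length the members ran from Hk3 and Pkm (533 and 392 CPM per kb) over Ldha (221), Pgk1 (107), Slc2a1 (37.5), Pfkp (32.8), Hk2 (24.1) and Hk1 (22.8) to Pfkl (9.92) and Pfkfb3 (9.27). Neighbours in this order overlapped over the 4 libraries in 3 places, Slc2a1 with Pfkp, Hk2 with Hk1, and Pfkl with Pfkfb3. In the last 2 of these the order turned with treatment. Hk2 was above Hk1 with DMSO, at means of 27.5 and 24.0 CPM per kb, and below it with GSI, at 20.7 and 21.6. That turn depended on the exon length used, since in CPM Hk1 was above Hk2 in all 4 libraries. Pfkfb3 was above Pfkl with DMSO, at means of 10.5 and 9.19 CPM per kb, and below it with GSI, at 8.04 and 10.6. Slc2a1 was above Pfkp with DMSO (41.2 ± 0.954 against 32.4 ± 0.295, SD, n = 2) and overlapped it with GSI (33.7 ± 0.853 against 33.3 ± 0.884). Among 13172 genes ranked by level per kb, Hk3 was number 79, Pkm 122 and Ldha 235, whereas Pfkfb3 was number 3861.

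The sequence before the start of each gene was searched for ACGTG on both strands, the core of the element that HIF binds and also part of the CACGTG E-box of other factors. All 10 members matched RefSeq promoters (GRCm38.p6). In the 250 bases before the start nearest the principal transcript, 6 of the 10 held ACGTG, against 16.6% of 32851 promoters. CACGTG was in 6.02% of them. The 6 were Slc2a1, Hk2 and Pfkfb3, which were called lower, and Hk3, Pgk1 and Ldha, which were called higher, so the motif stood before genes of both directions. It was not found in these windows of Hk1, Pfkl, Pfkp and Pkm. The 6 sequences are shown 5′ to 3′ on the strand of the gene, since they hold the motif that members of both directions shared, with ACGTG or its reverse complement CACGT in capitals. They are chr4:119108495-119108713 (plus strand) for Slc2a1, chr6:82774455-82774704 (minus) for Hk2, chr2:11502102-11502340 (minus) for Pfkfb3, chr13:55021386-55021635 (minus) for Hk3, chrX:106186850-106187099 (plus) for Pgk1 and chr7:46845554-46845803 (plus) for Ldha. The stretch printed for Slc2a1 ends 31 bases and that for Pfkfb3 ends 11 bases before the RefSeq start, and the other 4 run up to it. The ACGTG of Slc2a1 spans the start of the gene in the GENCODE annotation. The stretches of Pfkfb3 and Ldha lie inside the annotated gene, upstream of the start used by the principal transcript.
Slc2a1: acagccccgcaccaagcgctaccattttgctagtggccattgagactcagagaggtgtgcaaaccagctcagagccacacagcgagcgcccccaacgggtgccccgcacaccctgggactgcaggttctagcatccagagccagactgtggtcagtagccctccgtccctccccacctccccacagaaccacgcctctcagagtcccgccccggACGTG
Hk2: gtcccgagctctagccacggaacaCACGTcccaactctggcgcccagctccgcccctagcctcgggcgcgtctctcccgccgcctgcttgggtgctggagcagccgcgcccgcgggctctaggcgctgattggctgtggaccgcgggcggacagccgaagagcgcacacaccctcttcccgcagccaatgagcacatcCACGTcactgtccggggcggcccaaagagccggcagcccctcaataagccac
Pfkfb3: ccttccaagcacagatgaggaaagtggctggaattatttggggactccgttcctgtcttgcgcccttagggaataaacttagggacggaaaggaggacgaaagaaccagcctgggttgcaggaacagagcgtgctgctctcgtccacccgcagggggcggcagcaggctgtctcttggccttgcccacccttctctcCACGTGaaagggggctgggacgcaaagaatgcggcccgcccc
Hk3: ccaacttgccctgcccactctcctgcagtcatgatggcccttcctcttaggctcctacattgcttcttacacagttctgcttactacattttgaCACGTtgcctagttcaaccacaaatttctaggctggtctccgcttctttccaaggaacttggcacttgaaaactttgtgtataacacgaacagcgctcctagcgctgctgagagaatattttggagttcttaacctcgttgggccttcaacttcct
Pgk1: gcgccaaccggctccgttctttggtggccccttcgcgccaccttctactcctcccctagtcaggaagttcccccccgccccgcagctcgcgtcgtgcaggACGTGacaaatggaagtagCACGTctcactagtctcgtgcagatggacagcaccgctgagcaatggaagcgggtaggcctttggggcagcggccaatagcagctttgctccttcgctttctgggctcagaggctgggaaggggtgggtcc
Ldha: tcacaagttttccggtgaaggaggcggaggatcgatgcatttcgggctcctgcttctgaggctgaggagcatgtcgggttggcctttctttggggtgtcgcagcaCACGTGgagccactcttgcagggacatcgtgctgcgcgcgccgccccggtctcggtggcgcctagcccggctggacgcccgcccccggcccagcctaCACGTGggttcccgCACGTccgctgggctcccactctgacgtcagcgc
Pfkfb3 and Ldha held the longer CACGTG, and Ldha held 3 separate stretches in all. A match is only a description of these letters and does not show binding.

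The other glycolytic enzymes were next set beside the members. Of 20 listed, 12 were tested, 6 were higher and none lower, where 19.0% of all genes were higher and 21.9% lower. Aldoa, which splits fructose 1,6-bisphosphate, had 1166 and 1337 CPM with DMSO and 1679 and 1703 CPM with GSI, a log2 fold change of 0.43 (FDR = 0.000173). Tpi1, triose phosphate isomerase, had 368 and 379 CPM with DMSO and 475 and 489 CPM with GSI, a log2 fold change of 0.37 (FDR = 0.000269). Aldoa, Tpi1 and Eno3 were the 3 of the 6 whose call was kept without any 1 library. Eno3, the muscle enolase and the only one of the 12 called with a change over 1.5-fold, as 14.1% of all genes were, was rare, with 99 and 147 counts with DMSO and 190 and 196 with GSI. Gapdh (0.22, FDR = 0.0196) lost its call without DMSO replicate 1 (0.19, FDR = 0.152) and without DMSO replicate 2 (0.24, FDR = 0.0643). Without GSI replicate 2 the calls of Pgam1 (0.30, then 0.12 with FDR = 0.307) and Eno1 (0.27, then 0.18 with FDR = 0.0945) were lost. Gpi1, Pfkm, Aldoc, Bpgm, Eno2 and Ldhb did not pass the test. Eno2, the neuronal enolase, at -0.21 (FDR = 0.103), was called with the replicate block (-0.21, FDR = 0.0454) and without DMSO replicate 1 (-0.32, FDR = 0.0474), which would make 1 of the 12 lower.

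Taking the gene with the highest level per kb at each of the 11 steps from hexokinase to lactate dehydrogenase gave Hk3, Gpi1, Pfkp, Aldoa, Tpi1, Gapdh, Pgk1, Pgam1, Eno1, Pkm and Ldha. Of these 8 were higher with GSI, none was lower, and Gpi1, Pfkp and Pkm did not pass, where 19.0% of all genes were higher and 21.9% lower. Without any 1 library 3 of the 8 kept their call, Aldoa, Tpi1 and Ldha. The summed level of a step was above both DMSO libraries in both GSI libraries at 10 of the 11 steps, where single genes lay so in 35.8% of all tested, and it overlapped at glucose phosphate isomerase. The mean sums were 34.3% higher at aldolase, 29.3% at triose phosphate isomerase, 23.9% at lactate dehydrogenase, 13.4% at hexokinase and 4.33% at phosphofructokinase. The members called lower were thus none of the leading genes of a step. Hk2 was a minor part of the hexokinase level, and Slc2a1 and Pfkfb3 are not enzymes of a step. Over all 22 glycolytic enzymes and members tested, 3 were lower, 10 higher and 9 not called, beside the same 21.9% and 19.0% of all genes.

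**Figure D4:**
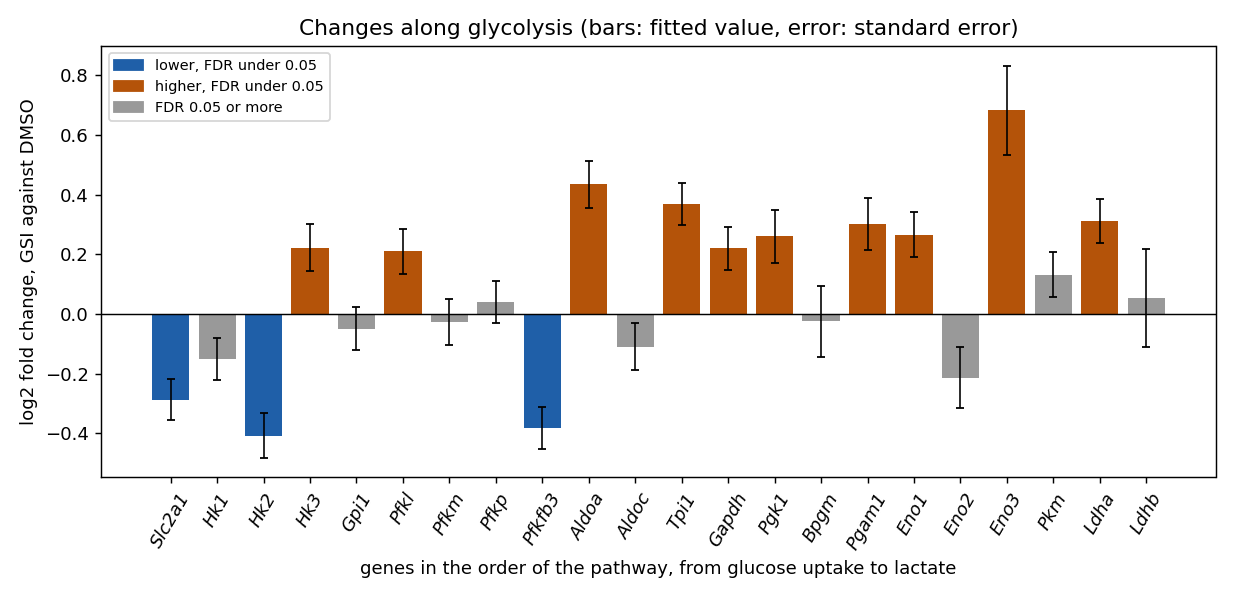
Log2 fold change (GSI over DMSO) of the tested glycolytic genes in the order of the pathway, as bars with standard errors, coloured by call. The genes below 0 and called are Slc2a1, Hk2 and Pfkfb3, and the aldolase and triose phosphate isomerase genes Aldoa and Tpi1 lie at 0.43 and 0.37.

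Among other sugar transporters and the thioredoxin-interacting family, 2 of 6 tested genes were lower and 3 higher, and 2 of the 6 were called with a change over 1.5-fold. Of all genes 21.9% were lower, 19.0% higher and 14.1% called past 1.5-fold. Slc2a6, a lysosomal member of the glucose transporter family, had 388 and 453 CPM with DMSO and 685 and 773 CPM with GSI, a log2 fold change of 0.79 (FDR = 2.39e-07). Slc2a1 thus lay further below Slc2a6 with GSI, at a log2 ratio of CPM of -2.56 and -2.68 against -1.40 and -1.67 with DMSO. Slc2a9, a urate transporter, had 20.1 and 19.5 CPM with DMSO and 13.3 and 14.3 CPM with GSI (-0.52, FDR = 8.23e-05). Arrdc4, an arrestin-domain protein induced by sugar phosphates, had 32.6 and 36.1 CPM with DMSO and 71.9 and 68.2 CPM with GSI (1.03, FDR = 2.11e-09). The other lower gene was the neuronal type transporter Slc2a3 (-0.31, FDR = 0.0314), whose call was lost without DMSO replicate 1 (-0.25), GSI replicate 1 (-0.31) or GSI replicate 2 (-0.31) and with DESeq2 (-0.32, FDR = 0.159). The relative of Arrdc4, Txnip, which promotes internalization of GLUT1, had a log2 fold change of 0.28 (FDR = 0.00486), and without DMSO replicate 2 this was 0.24 (FDR = 0.0628).

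The branches that leave glycolysis were described by lists of their enzymes. In the pentose phosphate pathway 4 of 8 tested genes were higher and none lower, where 19.0% of all genes were higher and 21.9% lower. The 4 were Rpia (0.44), Pgls (0.37), Pgd (0.29) and Taldo1 (0.24), the last of which lost its call without DMSO replicate 1 (0.23, FDR = 0.0660). Among genes of lactate and pyruvate fate 3 of 17 were lower and 5 higher, or 8 of 17 called where 40.8% of all genes were, with the pyruvate dehydrogenase kinase Pdk3 at 0.42, the mitochondrial pyruvate carrier subunit Mpc1 at 0.40 and the pyruvate dehydrogenase phosphatase Pdp1 at 0.39. The other two higher genes were the pyruvate dehydrogenase subunits Pdhb (0.35) and Dlat (0.32). The 3 lower genes, the kinases Pdk1 (-0.21) and Pdk2 (-0.38) and the monocarboxylate transporter Slc16a7 (-0.30), all lost their call without DMSO replicate 1 (-0.15, -0.36 and -0.23). Pdk1 and Slc16a7 lost it also without GSI replicate 1 (-0.18 and -0.25), and Pdk2 without GSI replicate 2 (-0.30). With DESeq2 Pdk2 (-0.39, FDR = 0.0873) and Slc16a7 (-0.30, FDR = 0.0557) were not called either. In the glycogen list 3 of 12 were lower and 1 higher, shares near or below those of all genes. With the replicate block 7 of the 12 were called, and so were 48.8% of all genes. The 3 lower genes were Pygl, Pgm2l1 (-0.84) and Pygb (-0.23), and only with GSI replicate 2 left out was Pygb still called (-0.21 without GSI replicate 1, -0.24 without DMSO replicate 1 and -0.22 without DMSO replicate 2). Pygl, the liver glycogen phosphorylase, had 76.0 and 73.6 CPM with DMSO and 40.7 and 39.5 CPM with GSI, a log2 fold change of -0.90 (FDR = 5.37e-09). Gbe1, the glycogen branching enzyme, was higher (0.53).

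**Figure D5:**
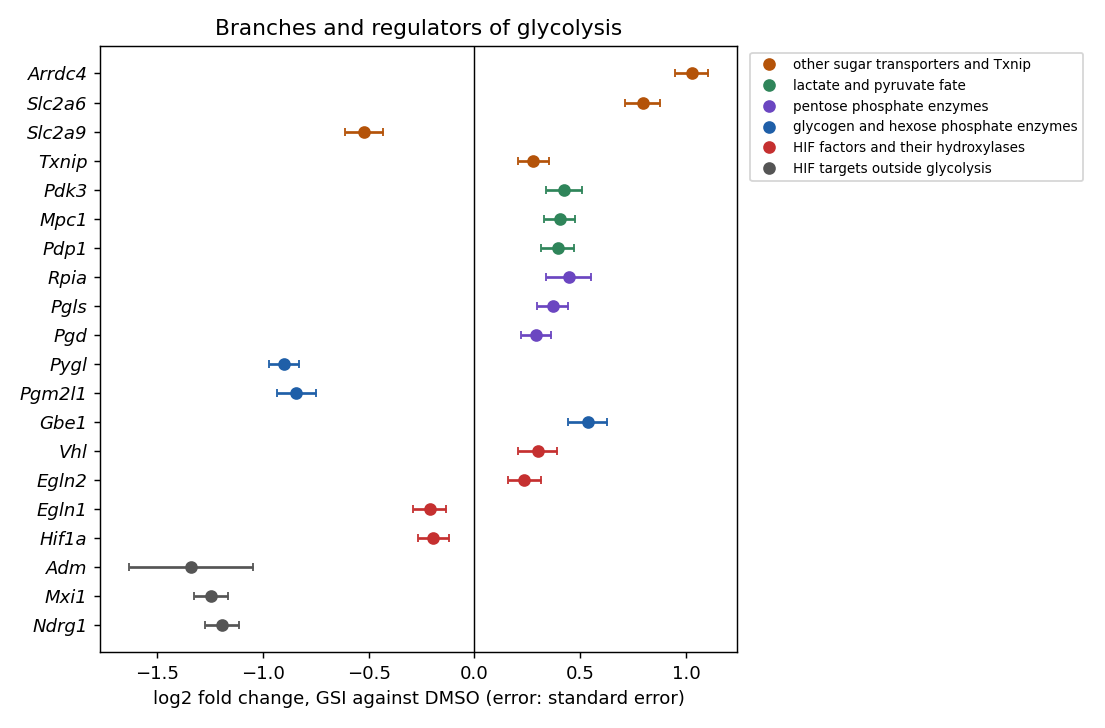
Log2 fold changes (GSI over DMSO) with standard errors for the called genes with the largest changes in the sugar transporter, lactate and pyruvate, pentose phosphate, glycogen and HIF lists, and for Txnip and Hif1a. Adm, Mxi1 and Ndrg1 lie at -1.34 to -1.19, and Arrdc4 at 1.03.

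ACGTG, found before the searched start of 6 members, is the core of the HIF element. The HIF system and HIF targets outside glycolysis were therefore also examined. Hif1a, which encodes HIF-1α, had 405 and 367 CPM with DMSO and 347 and 328 CPM with GSI, a log2 fold change of -0.19 (FDR = 0.0416). That call was lost without DMSO replicate 1 (-0.12, FDR = 0.383) and without GSI replicate 2 (-0.15, FDR = 0.160). Of 8 HIF factors and hydroxylases tested, 2 were lower and 2 higher, near the 21.9% and 19.0% of all genes. The 4 calls became 1 called gene with DESeq2, which was Hif1a (-0.20, FDR = 0.0340). DESeq2 called 28.5% of the genes to which it gave an adjusted p, beside 40.8% of all genes tested with edgeR. Beside Hif1a, the prolyl hydroxylase Egln1 was lower (-0.21), and Egln2 (0.23) and Vhl (0.30), whose product marks hydroxylated HIF for degradation, were higher. Egln1 and Egln2 lost their call without DMSO replicate 1 (-0.17 and 0.18) and without GSI replicate 1 (-0.17 and 0.18), and Vhl without DMSO replicate 2 (0.29, FDR = 0.0790). HIF-1α is controlled mainly through protein stability, which RNA counts do not measure. Of 17 HIF targets outside glycolysis, 6 were lower and 1 higher, where 21.9% of all genes were lower and 19.0% higher. Among the 6, Pdk1 was also counted in the list of lactate and pyruvate fate, and its call was lost without DMSO replicate 1 (-0.15, FDR = 0.239) and without GSI replicate 1 (-0.18, FDR = 0.105). Mxi1, an antagonist of MYC, was lower at -1.24, and Ndrg1 at -1.19. Bhlhe40 (-0.68, FDR = 4.14e-06) and Vegfa (-0.46, FDR = 2.38e-05) were lower too. With 1 library left out they ranged from -0.83 to -0.54 and from -0.52 to -0.42. Of the 17 targets 4 were called with a change over 1.5-fold, where 14.1% of all genes were. Adm, the vasodilator adrenomedullin, had 79 and 83 counts with DMSO and 44 and 19 with GSI, and its log2 fold change of -1.34 went from -2.08 without GSI replicate 1 to -0.84 without GSI replicate 2. The gene called higher was Plin2 (0.54), the lipid droplet coat protein. The median log2 fold change of the 17 was 0.0036, against 0.015 over all genes.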

How the data were processed

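RNA of IFNγ-primed BMMs was sequenced with a stranded mRNA kit from 2 DMSO and 2 DAPT (GSI) libraries. The authors trimmed reads with Trimmomatic, aligned them with STAR (2.5.0a in the submitters' processing notes) and counted them per gene with HTSeq on mm10. GEO lists mm9 as well, and the HTSeq mode and strand setting are not given in the sources used here. The authors deposited raw counts, which are neither scaled nor filtered, in 16 columns, 4 for each library. The 4 columns of a library agreed within sampling noise (chi-square per degree of freedom 1.01 to 1.03, against 14.7 and 16.6 between replicates) and were summed.

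Here the sums were tested with edgeR 4.0.16 in R 4.3.3, using filterByExpr, TMM factors (0.997 to 1.01), a quasi-likelihood fit by group and Benjamini-Hochberg adjustment over 13211 genes. A log2 fold change is GSI over DMSO. Marker sums are CPM of the plain library totals. CPM of all other genes were scaled by TMM and, for comparisons between genes, divided by merged exon length (GENCODE M21, GRCm38, 46574 identifiers matched). A count of 3, taken as the detection floor, was 0.0527 to 0.0703 CPM of the plain totals, for counting error only. On simulated counts of 13036 genes the edgeR fit called 90.8% of 98 genes changed by a log2 of 1 and 100% of 100 changed by 2. It called 0.0467% of the 12838 unchanged genes. Log2 fold changes of the size of the members, -0.41 to 0.31, were not tested in this way.

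The members and lists were chosen with earlier results of these data known. The members and all tested genes of each list were counted. Named were all members, all tested glycolytic enzymes, the 3 called genes with the largest change in each other list, and Hif1a and Txnip. Further genes were named to complete a count of called genes and were chosen after their values were seen. They were Slc2a3, Pdhb, Dlat, Pdk1, Pdk2, Slc16a7, Taldo1, Pygb, Plin2, Bhlhe40, Vegfa, Pfkfb4 and those gained under the block. Alternatives were RLE or no scaling, DESeq2 1.42.0, other filters on low counts, a replicate block, leaving out each library, a 1.5-fold threshold and shares of raw counts.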

Additional observations from a re-analysis of the deposited data

How the results depend on the processing

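With 2 libraries a group, edgeR pools the spread, and a group left with 1 library is assumed to vary like the other. Of 100 values of the members under the alternatives, 92 kept direction and side of the threshold, 7 lost the call, 1 gained it and 0 reversed. RLE scaling, no scaling and the filters on low counts changed no call of a member. With DESeq2 the log2 fold change of Pfkl (0.21) lost its call, as did those of Slc2a3, Pdk2, Slc16a7, Egln1, Egln2 and Vhl, so that 1 gene of the HIF factor list was called in place of 4, 6 of the lactate and pyruvate list in place of 8 and 4 of the sugar transporter list in place of 5. In all DESeq2 called 4034 genes in place of 5392. These were 28.5% of the genes to which DESeq2 gave an adjusted p, and 40.8% of the 13211 tested with edgeR. The bases of the 2 shares thus differ. Leaving out 1 library gave log2 fold changes of 0.14 to 0.30 for Hk3, 0.15 to 0.27 for Pfkl and 0.090 to 0.41 for Pgk1, with 1 to 4 members called higher and 1 to 3 genes called in the HIF factor list. In each case the cause was not tested beyond the smaller number of libraries.

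The labels give both groups replicates 1 and 2 but do not tie equal numbers to an animal or day, and same-numbered libraries deviated together with a correlation of 0.249 over 7582 genes. With the replicate number as a block, Hk1 was called at a log2 fold change of -0.15, 1 gene was called in the fructose bisphosphate list (Pfkfb4) and 7 in the glycogen list (with Ugp2, Pgm2 and Slc37a4). The block also raised the calls among other glycolytic enzymes from 6 to 7 (Eno2), in the lactate and pyruvate list from 8 to 10 (Dld and Pdp2), among pentose phosphate enzymes from 4 to 5 (Rpe) and among HIF factors from 4 to 5 (Arnt). It ended no call in the members or these pathway lists, and 6444 genes were called in all in place of 5392. It changed no other call of a member. Shares of raw counts in place of shares per length differed between the groups by -1.76 percentage points for Hk1, -2.41 for Hk2, 4.17 for Hk3 and -0.33 for Pfkm, all in the same direction as per length.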
